A study of Homo sapiens with 6 samples.

Results

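ABC transporter genes were taken as all genes whose annotated symbol is ABC, a letter from A to G and a number. This rule found 46 of the 58735 genes in the count table. Of these, 45 were annotated as protein coding, and ABCC13 was annotated as a transcribed unprocessed pseudogene. Of the 46 genes, 27 had enough reads to be tested, among 14338 genes tested in all.

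ABC transporters bind and hydrolyse ATP in paired cassettes and use the cycle to move lipids, drugs, peptides, metabolites or conjugates across membranes. Subfamilies A and G hold many lipid exporters, subfamily B holds P-glycoprotein and carriers of the mitochondrial membrane, subfamily C holds the multidrug resistance proteins and the sulfonylurea receptors, and subfamily D serves mainly peroxisomes. Proteins of subfamilies E and F have the cassettes but no membrane domain, and act on ribosomes and translation. In tumor cells the family is best known for pumping out cytotoxic drugs.

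RNA-Seq was performed on BT549, an established cell line of basal-like breast cancer. The 3 control libraries came from cells given DMSO, the solvent, and the 3 treated libraries from cells given AS1842856, a small molecule that binds FOXO1 and blocks its binding to DNA. Both groups were harvested after 48 h. The dose is 200 nM in the sample labels, the written methods give a higher one, and this was not resolved here. All 6 libraries share 1 cell line and 1 time, and the treated libraries share 1 dose. The replicates, A, B and C in each group, are called biological replicates in the methods.

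The libraries held between 15289500 and 22981832 counts, and the chi-square per degree of freedom between replicates of a group was 2.37 to 3.29, so replicates differed by more than sampling noise. Markers fixed for a mesenchymal basal-like line were all present, with a summed FPKM (fragments scaled by gene length and library size) over 8 genes of 884 to 906 in DMSO and 660 to 669 with AS1842856. Within that sum FN1 went the other way, from 23.8 to 27.5 FPKM in DMSO to between 55 and 57.4, and AXL went from 80.7 to 82.9 to between 24.7 and 27.1. Of 8 luminal markers, ESR1, PGR, EPCAM and CDH1 were at or near 0, and the summed FPKM was 20.5 to 21.5 and 17.3 to 19.9. Within that sum GATA3 was at 13.9 to 15.3 FPKM in DMSO and 16.5 to 18.9 with AS1842856, whereas KRT8 was at 5.59 to 6.07 and 0.55 to 0.633. Of 5 blood markers CD3E and HBB had no counts, with sums of 0.246 to 0.409 and 0.513 to 0.95 from PTPRC and CD14. The 4 endothelial markers had at most 6 counts in a library, with sums of at most 0.0482. The part of these marker differences in the results below was not tested. In bulk RNA, fewer cells of a kind and less RNA per cell cannot be told apart.

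The question was which ABC transporter genes differ in RNA level after AS1842856. A gene was called when edgeR's quasi-likelihood test gave a Benjamini-Hochberg adjusted p under 0.05 over all genes tested. Of the 27 members tested, 11 were called, 4 higher and 7 lower with AS1842856. Among all genes tested 56.0% were called, 27.6% higher and 28.4% lower, so the members' share of 40.7% was no higher than the background. The higher genes were ABCC1 and ABCC4, which export conjugates and drugs, ABCC9, a channel subunit, and ABCE1, which recycles ribosomes. The lower genes included ABCA3 and ABCA5 of the lipid exporters, ABCC3 of the conjugate exporters, ABCB8 of the mitochondrion, ABCD3 of the peroxisome and ABCF1 of translation.

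The median size of change, taken in either direction, was also smaller for the members than for all genes. Their median log2 fold change was -0.11, against 0.0030 for all genes tested, and the median size in either direction was 0.19 against 0.26. Only ABCA3 and ABCA5 were called with a log2 fold change of at least 1 in size, which is 7.41% of the members tested, beside 10.6% of all genes. Both fell, as did 6.33% of all genes by that much. The 3 libraries of each group did not overlap in 13 members, 4 higher and 9 lower, or 48.1%, beside 59.9% of all genes (29.5% higher, 30.3% lower).

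In this fit the share of members called lay below that of all genes in each band of expression, with few members per band. In the lowest band, under 5 CPM (counts scaled to library size, with TMM factors), 1 of 6 members was called, beside 33.3% of all genes. From 5 to 30 CPM, 4 of 10 members were called, beside 56.5%. At 30 CPM or more, 6 of 11 were called, beside 69.7%. In this last band the median standard error was 0.05 for members and 0.05 for all genes, while the median size of the change was 0.13 for members and 0.20 for all genes. From 5 to 30 CPM the median sizes were closer, at 0.25 for members and 0.27 for all genes, and the standard error was larger for members, at 0.13 against 0.10. Under 5 CPM they were 0.31 and 0.43, with standard errors of 0.28 and 0.32. With 6 to 11 members per band these are counts, and no test was made of them. The members' share was not the lower one in every alternative fit, as given in the last section.

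**Figure D1:**
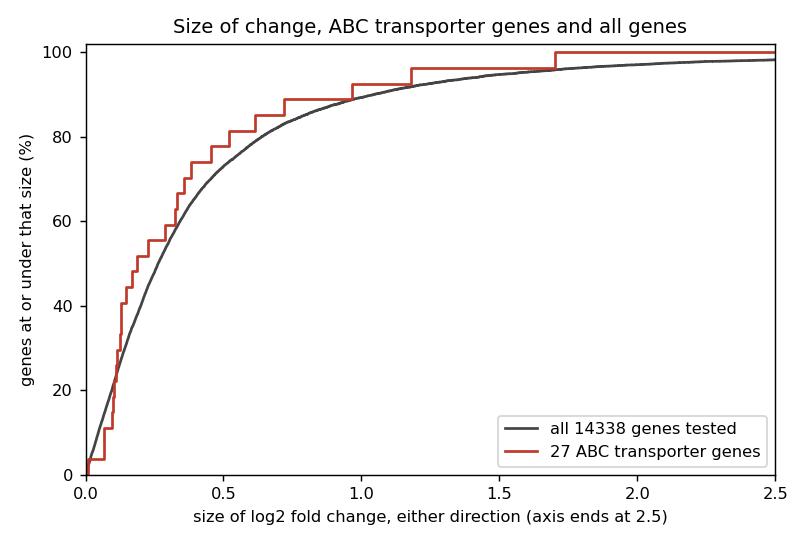
Cumulative share of genes (percent, vertical axis) at or under a given size of log2 fold change in either direction (horizontal axis, which ends at 2.5), for the 27 ABC transporter genes tested and all 14338 genes tested. The line of the ABC transporter genes lies above that of all genes over most of the range, with medians of 0.19 and 0.26.

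Levels of different genes were compared in FPKM, which divides by gene length. ABCF1 stood highest among the members, with 56.4, 57.0 and 60.6 FPKM in DMSO replicates A, B and C and 50.8, 55.2 and 53.6 with AS1842856. ABCE1 followed with 36.9, 39.8 and 41.3 FPKM in DMSO and 47.7, 45.7 and 44.5 with AS1842856. The ranges of ABCF1 and ABCE1 did not meet, so their order was the same in every library.

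The next 3 genes lay much closer together. ABCC4 had 12.2, 12.4 and 11.6 FPKM in DMSO and 17.9, 18.6 and 18.8 with AS1842856. ABCF3 had 11.8, 11.4 and 12.7 FPKM in DMSO and 12.8, 12.6 and 12.2 with AS1842856. ABCD3 had 12.04, 11.8 and 12.6 FPKM in DMSO and 11.1, 10.7 and 10.3 with AS1842856. In DMSO these 3 genes overlapped and had no order beyond their spread, whereas with AS1842856 ABCC4 lay above ABCF3 and ABCF3 above ABCD3 in every library.

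These 5 genes held 69% of the FPKM summed over all members. ABCC1 was the only further member at 10 FPKM or more, with a mean of 10.7, and 12 members had a mean between 1 and 10. The other 28 members were under 1 FPKM or not listed in the FPKM tables, which leave out 8 of them. Summed over the family, the level was 194.7, 193.5 and 201.4 FPKM in DMSO and 200.0, 203.5 and 199.9 with AS1842856. The sums of the groups overlapped, although 11 members moved.

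**Figure D2:**
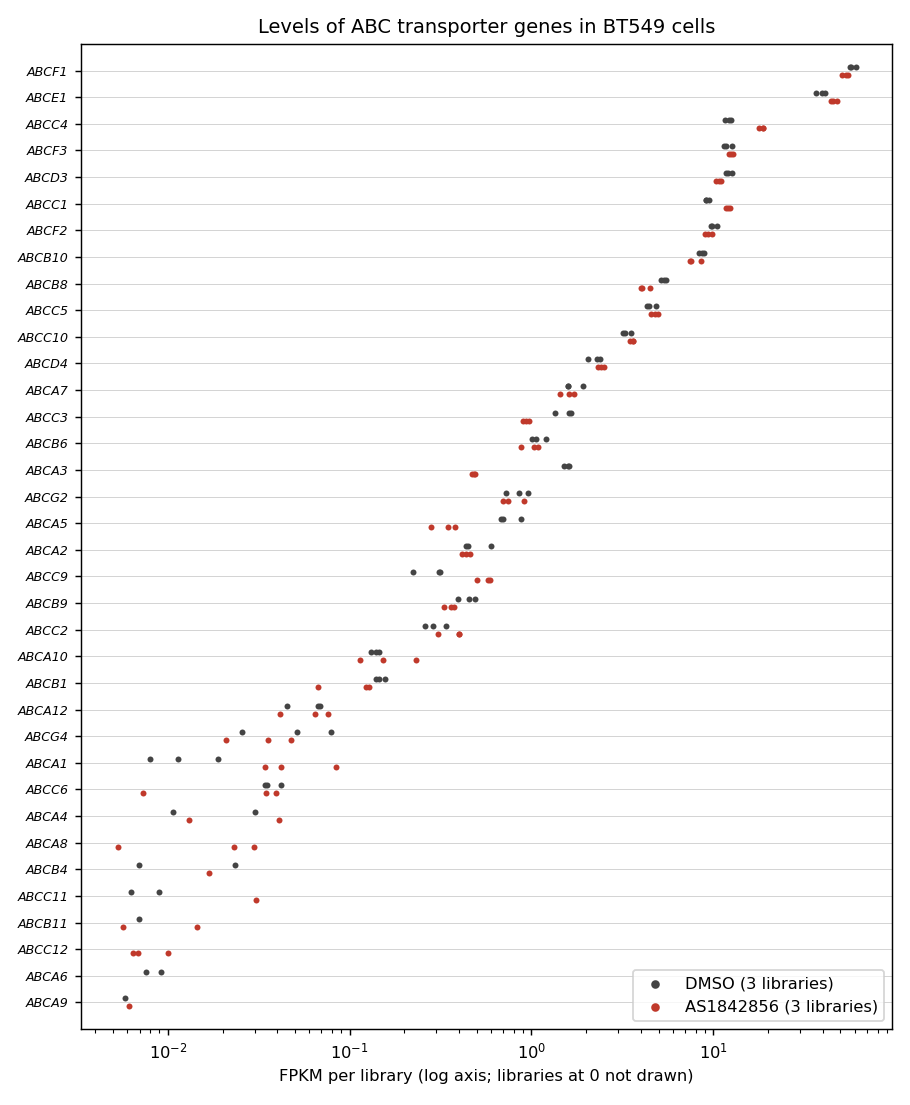
FPKM of the ABC transporter genes listed in the FPKM tables and reported here (vertical axis, by mean level) in each of the 6 libraries (horizontal axis, log scale; libraries at 0 not drawn), with DMSO in grey and AS1842856 in red. ABCF1 and ABCE1 stand apart at the top, at means of 55.6 and 42.6 FPKM, and the genes under 0.1 FPKM spread widely between replicates.

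ABCA3 and ABCA5, lipid transporters, were the members that fell most. ABCA3 (ENSG00000167972, chr16:2275881-2340746, minus strand, GRCh38) loads surfactant phospholipid into lamellar bodies in lung. It had 12.5, 12.6 and 11.8 CPM in DMSO replicates A, B and C and 3.84, 3.81 and 3.70 CPM with AS1842856. Every treated library lay below every control. The mean went from 12.3 ± 0.460 to 3.78 ± 0.0732 CPM (SD, n = 3), to 30.8% of DMSO in the fit, with a log2 fold change of -1.70 (SE 0.14, adjusted p = 4.951e-26, edgeR). This change was larger in size than that of 95.9% of all genes tested.

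ABCA5 (ENSG00000154265, chr17:69244311-69327244, minus strand), found in late endosomes and lysosomes and linked to cholesterol handling, had 11.5, 8.99 and 9.20 CPM in DMSO and 5.04, 3.72 and 4.60 CPM with AS1842856. The groups were apart although replicate A was the highest of both. ABCA5 fell from 9.90 ± 1.41 to 4.45 ± 0.671 CPM (SD, n = 3), with a log2 fold change of -1.18 (SE 0.14, adjusted p = 7.969e-14, edgeR), to 44.2% of DMSO. Its exons share 318 bases with the neighbouring ABCA10 on the same strand, so some reads could belong to either, but ABCA10 had 150 counts in all libraries beside 813 for ABCA5. Leaving out any 1 library kept the log2 fold change of ABCA3 between -1.74 and -1.69 and that of ABCA5 between -1.28 and -1.05.

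The other sterol and phospholipid exporters tested were not called. ABCA2, of endosomes and lysosomes, had a log2 fold change of -0.17 (95% interval -0.49 to 0.15, adjusted p = 0.381, edgeR). ABCA7, which moves phospholipid across the plasma membrane, had -0.10 (-0.31 to 0.10, adjusted p = 0.426, edgeR). ABCA12, the ceramide lipid transporter of skin, was near the detection limit, and its interval of -0.90 to 0.92 leaves changes of either direction possible. ABCA10, a subfamily A gene of less certain function, had 0.29 (-0.36 to 0.94, adjusted p = 0.480, edgeR). In all, 11 members were placed among the sterol and phospholipid exporters, and 5 were tested. Of the 5, 2 fell and none was called higher, or 40% called beside 56.0% of all genes. Among all genes tested, 28.4% were called lower.

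ABCA1, the exporter that loads cholesterol onto apolipoprotein A-I, was too low for the filter. It had 2, 2 and 4 counts in DMSO and 16, 11 and 7 counts with AS1842856. The sums of 8 and 34 counts give a ratio per total count of 4.14 (95% exact interval 1.88 to 10.4, covering counting error only). Without the filter edgeR gave an adjusted p of 0.017, and DESeq2 gave 0.0464. ABCA8 had no counts in DMSO and 1, 6 and 6 counts with AS1842856, with adjusted p of 0.0159 in edgeR without the filter and 0.0369 in DESeq2. These differences rest on 8 and 0 control counts. ABCG1, the partner of ABCA1 in cholesterol export to HDL, and ABCG5 had no counts. ABCG4, a relative of ABCG1, had 11, 5 and 3 counts in DMSO and 5, 3 and 4 with AS1842856.

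Sterol genes without ABC symbols were counted beside the exporters, since LXR receptors, paired with RXR, switch on several of them. Of 18 listed genes 16 were tested, 2 being called higher and 5 lower, beside 27.6% and 28.4% of all genes. The median log2 fold change of the 16 was -0.13. RXRA, a partner of LXR, fell from 44.6 ± 2.20 to 23.2 ± 1.70 CPM (log2 fold change -0.96, adjusted p = 1.53e-30, edgeR). RXRB fell by 0.68 on the log2 scale (adjusted p = 1.24e-21, edgeR). The LXR genes NR1H2 and NR1H3 were not called, at 0.01 (SE 0.06) and -0.06 (SE 0.43). NR1H3 had few reads, with 17, 6 and 17 counts in DMSO and 16, 15 and 8 with AS1842856. Its large standard error leaves changes of either direction possible. SOAT1, which esterifies cholesterol, rose by 0.20. SREBF1, the regulator of fatty acid synthesis, was called at 0.11, and 8 of 15 alternatives lost this call, with adjusted p from 0.00192 to 0.228.

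**Figure D3:**
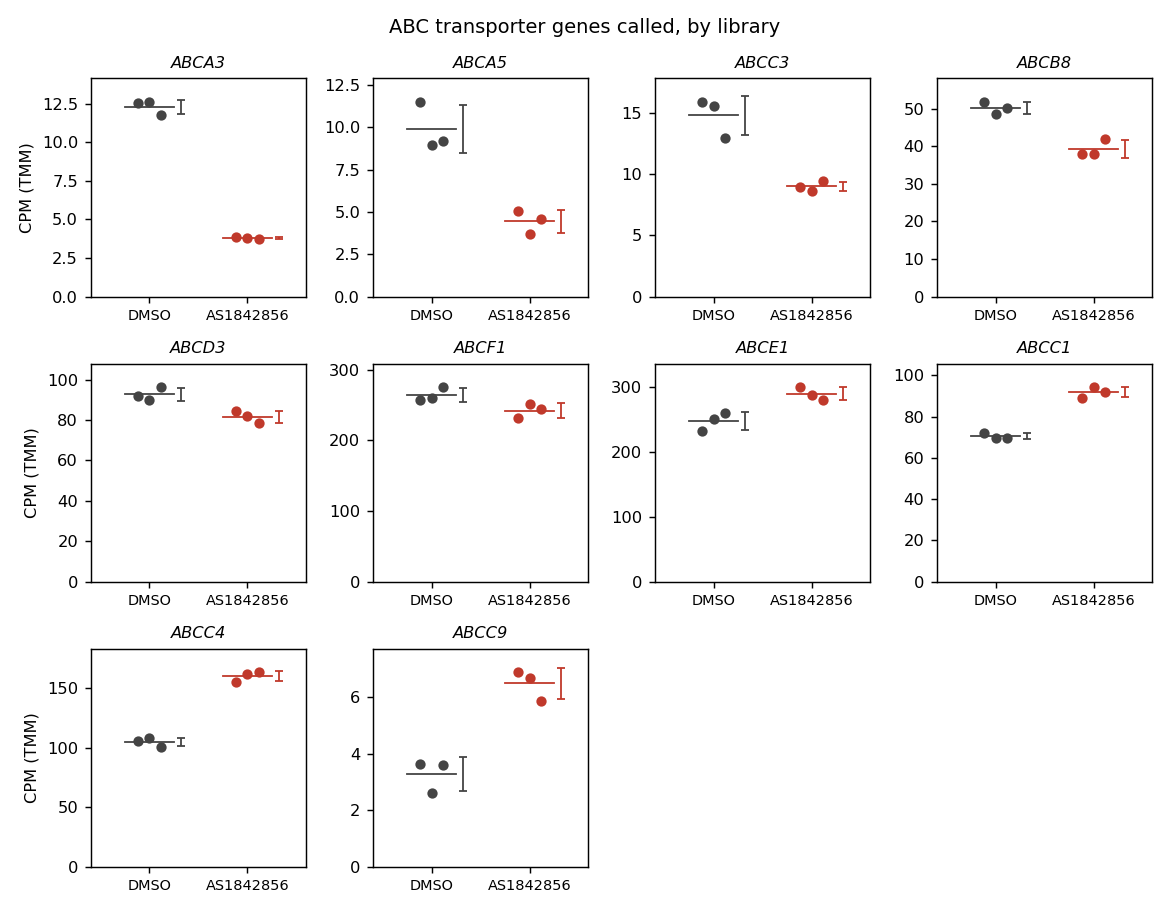
TMM-scaled CPM (vertical axes, each starting at 0) of 10 called ABC transporter genes in each DMSO and AS1842856 library, with the mean as a line and the SD of 3 libraries as a bar. The groups do not overlap in any of the 10 genes, from ABCA3, at 12.3 and 3.78 CPM, to ABCF1, at 263.9 and 242.1 CPM.

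Among the 13 drug and conjugate exporters, 8 were tested, 2 rose and 1 fell, or 37.5% called beside 56.0% of all genes. ABCC4 (ENSG00000125257, chr13:95019829-95301475, minus strand) exports cyclic nucleotides and prostaglandins. It had 105.6, 108.1 and 101 CPM in DMSO and 155.5, 161.9 and 163.8 CPM with AS1842856. The treated libraries were all above the controls, and the spread within each group was small. ABCC4 rose 1.53-fold, from 104.9 ± 3.64 to 160.4 ± 4.33 CPM (SD, n = 3), with a log2 fold change of 0.61 (SE 0.04, adjusted p = 1.403e-34, edgeR).

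ABCC1 (ENSG00000103222, chr16:15949577-16143074, plus strand), the founding multidrug resistance protein of subfamily C, exports glutathione conjugates and leukotriene C4. It had 72.1, 69.9 and 69.8 CPM in DMSO and 89.2, 94.4 and 92.2 CPM with AS1842856. All treated libraries exceeded all controls. ABCC1 rose 1.30-fold, from 70.6 ± 1.30 to 91.9 ± 2.61 CPM (SD, n = 3), with a log2 fold change of 0.38 (SE 0.05, adjusted p = 5.602e-13, edgeR).

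ABCC3 (ENSG00000108846, chr17:50634777-50692252, plus strand), an exporter of bile salts and glucuronides, went the other way. It had 15.9, 15.6 and 13.0 CPM in DMSO and 9.001, 8.67 and 9.42 CPM with AS1842856. The control range lay above the treated range, with the lowest control in replicate C. ABCC3 fell to 60.8% of DMSO, from 14.8 ± 1.62 to 9.03 ± 0.376 CPM (SD, n = 3), with a log2 fold change of -0.72 (SE 0.11, adjusted p = 3.824e-09, edgeR).

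The classical pumps other than ABCC1 were scarce. ABCB1, P-glycoprotein, had 18, 13 and 17 counts in DMSO and 12, 17 and 7 with AS1842856, or 0.820, 0.846 and 0.915 CPM against 0.720, 0.745 and 0.393. The treated libraries lay below the controls, but the test did not call it (log2 fold change -0.46, 95% interval -1.28 to 0.37, adjusted p = 0.366, edgeR), and at this depth either direction was within the interval. ABCG2, the breast cancer resistance protein, had 3.69, 4.88 and 4.36 CPM in DMSO and 4.62, 3.55 and 3.76 with AS1842856. Its groups overlapped, and the log2 fold change was -0.11 (-0.47 to 0.24, adjusted p = 0.620, edgeR).

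Of the remaining exporters, ABCC5, a carrier of cyclic nucleotides, had a log2 fold change of 0.07 (95% interval -0.04 to 0.18) and ABCC10 had 0.10 (-0.05 to 0.25). Both intervals stayed within 0.3 of 0 on the log2 scale. ABCC2, the exporter of the bile canaliculus, had 0.33 (-0.13 to 0.79, adjusted p = 0.228, edgeR). ABCC6 had at most 7 counts in a library, and its 2 pseudogenes had 17.9% as many counts. ABCB11, ABCC11 and ABCC12 had at most 4 counts in a library, and ABCB5 had none.

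Summed over the 13 exporters, FPKM was 32.6, 32.2 and 31.4 in DMSO and 40.0, 41.8 and 41.5 with AS1842856. ABCC4 held 37.3%, 38.6% and 37.0% of this sum in DMSO and 44.8%, 44.6% and 45.4% with AS1842856. ABCC4 was the leading exporter in all 6 libraries. ABCC1 kept a near constant share, at 28.4% to 29.2% in DMSO and 29.1% to 29.7% with AS1842856. ABCC3 took 5.06%, 4.99% and 4.27% in DMSO and 2.33%, 2.15% and 2.34% with AS1842856. These shares are parts of a whole, so the shares of ABCC5 and ABCC10, whose levels were not called different, were lower with AS1842856 in every library while the sum was higher. They are given as a description with no test.

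**Figure D4:**
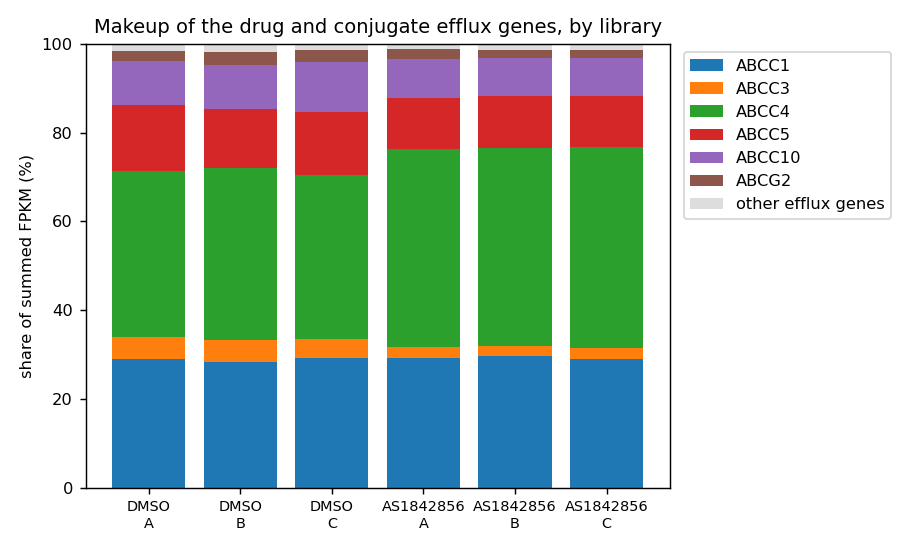
Share of the FPKM summed over the 13 drug and conjugate exporters (percent, vertical axis) held by each gene in each of the 6 libraries (horizontal axis). ABCC4 goes from 37.0% to 38.6% in DMSO to 44.6% to 45.4% with AS1842856, and ABCC3 from 4.27% to 5.06% to between 2.15% and 2.34%.

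Genes of glutathione supply and of the xenobiotic response, regulators among them, were listed beside these exporters. Of 22 listed, 18 were tested, 7 higher and 4 lower by the same call, beside 27.6% and 28.4% of all genes. The median log2 fold change of the 18 was -0.03. AHR, the aryl hydrocarbon receptor, rose from 55.4 ± 2.02 to 196.7 ± 5.97 CPM (log2 fold change 1.82, adjusted p = 5.31e-110, edgeR). CYP1A1, an oxidase, was called higher at few reads, with 8, 0 and 2 counts in DMSO and 13, 28 and 19 with AS1842856. Its log2 fold change was 2.51 (adjusted p = 1.25e-05, edgeR), and 3.99 without DMSO A. MGST1, a membrane-bound glutathione transferase, fell by 0.66, and NQO1, a quinone reductase, fell by 0.33 on the log2 scale.

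Drug and organic ion transporters of other families moved in both directions. Of 21 listed, 15 were tested, 4 being called higher and 5 lower, beside 27.6% and 28.4% of all genes. The median log2 fold change of the 15 was -0.07. SLCO2A1, the prostaglandin uptake carrier, fell from 77.1 ± 4.004 to 11.2 ± 1.23 CPM (log2 fold change -2.76, adjusted p = 6.97e-105, edgeR). SLC47A1, a proton-coupled cation exporter, fell by 0.98. SLC22A4, an organic cation carrier, rose by 0.54, a call that DESeq2 lost (adjusted p = 0.062, with 0.00577 to 0.062 over the alternatives).

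ABCC9 (ENSG00000069431, chr12:21797401-21942529, minus strand) is a sulfonylurea receptor, the regulatory subunit of ATP-sensitive potassium channels of heart and vessel muscle. It had 3.64, 2.60 and 3.61 CPM in DMSO and 6.90, 6.70 and 5.89 CPM with AS1842856. The lowest treated library was above the highest control. ABCC9 rose 1.95-fold, from 3.29 ± 0.589 to 6.497 ± 0.536 CPM (SD, n = 3), with a log2 fold change of 0.97 (SE 0.17, adjusted p = 1.675e-07, edgeR). Leaving out any 1 library gave 0.84 to 1.05.

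ABCC9 was the member with the highest log2 fold change of those tested, at a low level of 0.418 FPKM. Its pore partner KCNJ8 was near the detection limit and was not called (0.14, SE 0.37). The other receptor gene, ABCC8, and its pore partner KCNJ11 had no counts in any library.

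**Figure D5:**
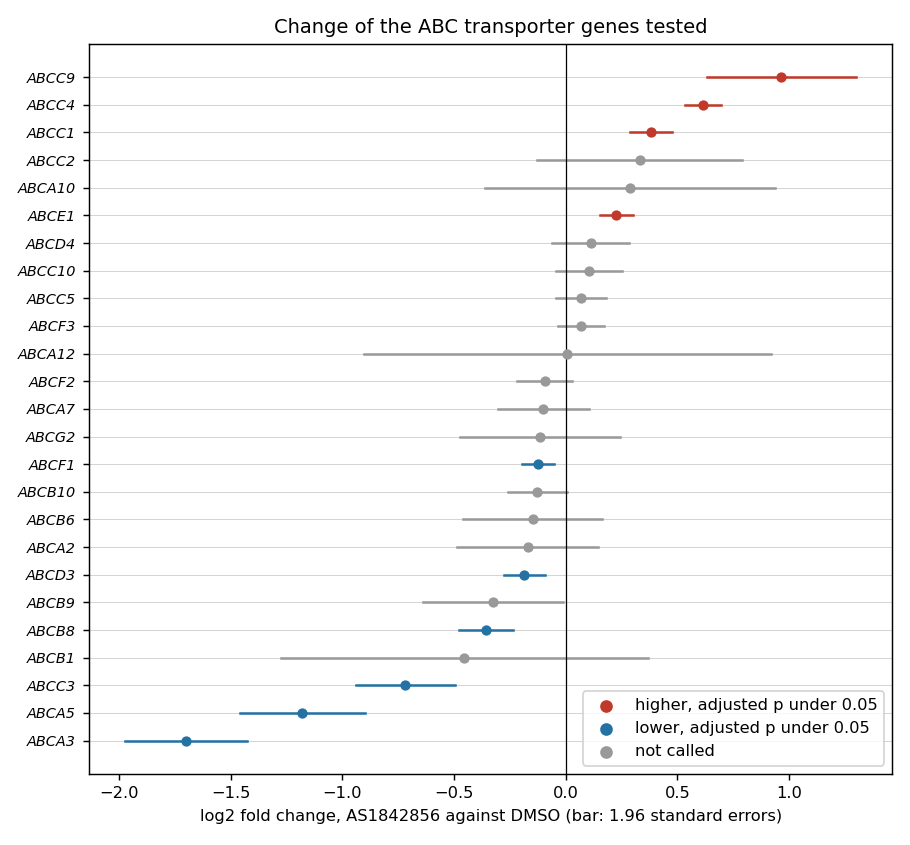
Log2 fold change of AS1842856 against DMSO (horizontal axis) for 25 of the 27 ABC transporter genes tested, with bars for the 95% interval, in red where called higher, blue where called lower and grey where not called. ABCA3 and ABCA5 lie farthest to the left, at -1.70 and -1.18, and ABCC9 farthest to the right, at 0.97.

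In subfamily D, ABCD3 of the peroxisome fell. ABCD3 (ENSG00000117528, chr1:94418455-94518666, plus strand), an importer of branched fatty acids and bile acid precursors, had 91.9, 89.9 and 96.3 CPM in DMSO and 84.4, 81.7 and 78.6 CPM with AS1842856. The groups were apart by a small margin. ABCD3 fell from 92.7 ± 3.29 to 81.6 ± 2.91 CPM (SD, n = 3), with a log2 fold change of -0.19 (SE 0.05, adjusted p = 3.091e-04, edgeR). ABCD4, which carries cobalamin out of lysosomes and not into peroxisomes, had 0.11 (95% interval -0.06 to 0.28, adjusted p = 0.285, edgeR). ABCD2, a peroxisomal fatty acid importer, had no counts.

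All 15 listed partners of subfamily D in peroxisome assembly, fatty acid breakdown and cobalamin handling were tested. Of these, 2 were called higher and 3 lower, beside 27.6% and 28.4% of all genes. The median log2 fold change of the 15 was -0.01. PEX3 fell by 0.46 and PEX16 rose by 0.69, and both act with PEX19 to insert peroxisomal membrane proteins. PEX19 was called at 0.23 and EHHADH, of peroxisomal fatty acid breakdown, at -0.53, calls that were lost in 1 and 2 alternatives, with adjusted p up to 0.0764 and 0.0676.

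Among mitochondrial and related transporters of subfamily B, ABCB8 fell. ABCB8 (ENSG00000197150, chr7:151028422-151047782, plus strand), of the inner mitochondrial membrane, had 51.8, 48.4 and 50.1 CPM in DMSO and 37.9, 37.8 and 42.0 CPM with AS1842856. The treated libraries were all lower. ABCB8 fell from 50.1 ± 1.67 to 39.2 ± 2.39 CPM (SD, n = 3), with a log2 fold change of -0.36 (SE 0.06, adjusted p = 6.568e-08, edgeR).

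ABCB10, linked to heme synthesis, had a small estimate of -0.13 (95% interval -0.26 to 0.005, adjusted p = 0.0992, edgeR). It passed the threshold without AS1842856 B (adjusted p = 0.0247, with 0.0247 to 0.31 over the alternatives). ABCB6, a porphyrin transporter, had -0.15 (-0.46 to 0.16). It shares 2864 exon bases, or 54.7% of its exons, with an overlapping gene model on its strand that had 6.44% as many counts.

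ABCB9, which moves peptides into lysosomes, had -0.32 (-0.64 to -0.01, adjusted p = 0.0744, edgeR). Its libraries did not overlap, and it was called without DMSO B (adjusted p = 0.0426, with 0.0426 to 0.438 over the alternatives). Its exons overlap ARL6IP4 and OGFOD2 on the opposite strand, and the use of strand in counting is not given in the sources used here.

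Partners in iron-sulfur and heme metabolism numbered 20, of which 19 were tested. Of the 19, 3 were called higher and 6 lower, beside 27.6% and 28.4% of all genes. The median log2 fold change of the 19 was -0.05. FECH, which inserts iron to form heme, fell by 0.61, and PPOX, the enzyme before it, fell by 0.66. UROD, an earlier enzyme of the pathway, rose by 0.21, and SLC25A38, a mitochondrial glycine carrier, rose by 0.36. Enzymes of heme synthesis were thus called in both directions.

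Of the ATPases of translation, which include the 2 most abundant members, ABCE1 rose and ABCF1 fell, both by small amounts. ABCE1 (ENSG00000164163, chr4:145097932-145129179, plus strand) splits ribosomes after termination. It had 232.1, 251.1 and 260.1 CPM in DMSO and 300.3, 287.8 and 280.9 CPM with AS1842856. The groups did not overlap. ABCE1 rose from 247.8 ± 14.3 to 289.7 ± 9.85 CPM (SD, n = 3), with a log2 fold change of 0.23 (SE 0.04, adjusted p = 1.859e-08, edgeR). It shares 276 exon bases with OTUD4 on the opposite strand, which had 39.0% as many counts, and reads there could be shared if counting ignored strand.

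ABCF1 (ENSG00000204574, chr6:30571376-30597179, plus strand), which binds the initiation factor eIF2 and ribosomes, had 256.6, 259.8 and 275.4 CPM in DMSO and 230.9, 251 and 244.3 CPM with AS1842856. The highest treated library lay just under the lowest control. ABCF1 fell from 263.9 ± 10.1 to 242.1 ± 10.2 CPM (SD, n = 3), with a log2 fold change of -0.12 (SE 0.04, adjusted p = 2.370e-03, edgeR). Over the alternatives its adjusted p ran from 0.000633 to 0.086.

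ABCF3 had 61.5, 59.7 and 66.6 CPM in DMSO and 67.0, 65.8 and 64.1 CPM with AS1842856, which overlapped (log2 fold change 0.07, 95% interval -0.04 to 0.17). ABCF2 had -0.09 (-0.22 to 0.03). It shares 1914 exon bases, or 45.8% of its exons, with an overlapping gene model on its strand that had 0 counts. How reads in the shared bases were counted is not known. Within the 4 genes, ABCE1 held 31.9% to 33.7% of the summed FPKM in DMSO and 37.0% to 39.5% with AS1842856, and ABCF1 held 48.3% to 48.9% and 42.1% to 45.1%. The sum itself was 115.5 to 124.4 FPKM in DMSO and 120.1 to 122.4 with AS1842856.

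Of 16 listed partners in ribosome recycling and translation, 15 were tested. Of the 15, 6 were called higher and 3 lower, beside 27.6% and 28.4% of all genes. The median log2 fold change of the 15 was 0.02. EIF2S1 and EIF2S3, subunits of the eIF2 that ABCF1 binds, rose by 0.33 and 0.36. PELO, which acts with ABCE1 on stalled ribosomes, fell by 0.41, and EIF2AK4, the kinase GCN2, fell by 0.41.

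Genes that are ABC transporters or their helpers by function but carry other symbols were counted apart. Of 5 listed, 4 were tested and all 4 were called lower, beside 28.4% of all genes, and their median log2 fold change was -0.66. TAP1 and TAP2, which carry peptides into the endoplasmic reticulum for MHC class I, fell by 0.64 and 0.21. TAPBP, their tether to class I molecules, fell from 226.8 ± 6.53 to 132.2 ± 4.24 CPM (log2 fold change -0.78, adjusted p = 1.48e-51, edgeR). TAPBPL was called at -0.68, a call that 6 of 14 alternatives lost, with adjusted p from 0.00296 to 0.127, which leaves 3 of these genes called. CFTR, a chloride channel of subfamily C, had no counts.

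Since AS1842856 binds FOXO1, the promoters were searched for FOXO and other letters. RefSeq windows (GRCh38.p14) from 250 bases before to 50 bases after the start matched 35 of the 46 members. A gene with several windows was counted once, in the members and in all genes alike. The letters TGTTTAC, bound by FOXO factors, stood on either strand in 3 of 35 members, beside 4.19% of 27305 genes, namely ABCE1, ABCF1 and ABCA6. CTTTGAT, bound by TCF and LEF factors, stood in 0 of 35 members and in 3.18% of all genes. The E-box CACGTG stood in 8 members (8.77% of all genes), CCAAT in 11 (39.7%), TATAAA in 8 (14%) and AGGTCA, a nuclear receptor element of which LXR and RXR bind pairs, in 3 (16.5%). A gene holding several of these was counted for each, and a match describes letters only.

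Stretches of 100 bases are shown for called genes of large change (ABCC3, with a larger change than ABCC4, had no promoter entry) and for ABCF1, the called gene with FOXO letters outside an exon. They lie at chr16:2340747-2340846 for ABCA3, chr17:69327245-69327344 for ABCA5, chr12:21941427-21941526 for ABCC9 and chr13:95301476-95301575 for ABCC4, all on the minus strand, and at chr6:30571211-30571310 on the plus strand for ABCF1. All are read 5′ to 3′ on the strand of the gene and lie outside exons of GENCODE release 29, that of ABCC9 within its annotated span and the others upstream of the gene. Capitals mark the searched letters.
ABCA3: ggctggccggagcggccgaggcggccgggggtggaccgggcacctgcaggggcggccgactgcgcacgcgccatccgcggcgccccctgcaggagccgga
ABCA5: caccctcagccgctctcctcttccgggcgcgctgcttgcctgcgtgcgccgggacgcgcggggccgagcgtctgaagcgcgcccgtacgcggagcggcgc
ABCC9: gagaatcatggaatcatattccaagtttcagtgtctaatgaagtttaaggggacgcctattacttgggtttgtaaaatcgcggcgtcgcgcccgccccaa
ABCC4: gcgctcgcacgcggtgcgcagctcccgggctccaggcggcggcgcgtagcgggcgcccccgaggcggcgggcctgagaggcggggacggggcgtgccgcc
ABCF1: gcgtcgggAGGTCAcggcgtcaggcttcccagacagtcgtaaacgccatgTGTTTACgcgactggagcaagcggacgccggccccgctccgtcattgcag
In ABCF1, AGGTCA begins 223 bases and TGTTTAC 181 bases before the start. The windows of ABCA3, ABCA5, ABCC4 and ABCC9 held none of the searched letters. The stretches of ABCA3, ABCA5 and ABCC4 hold 83%, 78% and 85% G or C, with 15, 19 and 19 CpG, and that of ABCC9 47% with 7. The stretch of ABCC9 was thus the poorest of these 4 in CpG.

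The 19 members that were not tested were nearly silent. ABCA13, ABCB5, ABCC8, ABCC13, ABCD2, ABCG1 and ABCG5 had no counts in any library. The other 12 had at least 1 count and at most 16 in a library. ABCA4, of the retina, had 2, 4 and 0 counts in DMSO and 0, 8 and 2 with AS1842856, and ABCB4, the phosphatidylcholine exporter of bile, had 4, 0 and 1 against 0, 3 and 0. ABCA6 had 4 counts in DMSO and 0 with AS1842856. ABCA9, ABCB11 and ABCG8 had at most 2 counts in a library. At this depth a change in these genes was not detectable, with the counts of ABCA1 and ABCA8 as the exceptions given above.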

How the data were processed

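RNA-Seq was measured in 6 BT549 libraries. The authors deposited raw counts per gene, without normalization, and FPKM values per library. The methods name STAR and the submitters' processing notes list CASAVA and Bowtie 0.12.2 with GRCh38. The counting tool and the use of strand are not given in the sources used here. All 58735 gene identifiers were found in GENCODE release 29, which gave symbols, positions and exons.

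Differential expression was tested on the counts by edgeR 4.0.16 (R 4.3.3), using filterByExpr (minimum count 10, minimum total 15), TMM factors of 0.995 to 1.01, robust glmQLFit and glmQLFTest without a block, and Benjamini-Hochberg adjustment over 14338 genes, with a threshold of 0.05. The common biological coefficient of variation was 0.0374. CPM are TMM-scaled. Intervals of log2 fold changes (95%) were taken from the standard error, and those of count ratios are exact and cover counting error only. PCR copies were not marked by molecular identifiers, so reads are not separate molecules. The test was run first on simulated counts.

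The members, roles, partner lists, markers and promoter letters were chosen with earlier results of these data known. Named were the members and, of each partner list, up to 2 of the largest called changes in each direction, plus NR1H2, NR1H3, TAP1, TAP2 and silent or untested partners, chosen after values were seen. Alternatives were DESeq2 1.42.0, other scalings and filters, limma 3.58.1 on log2(FPKM + 1) or log2(FPKM + 0.1), the replicate letter as a block and each library left out. Protein sequences were not used here. The counts include a few genes whose own values are not given.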

Additional observations from a re-analysis of the deposited data

How the results depend on the processing

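Over 16 alternatives, the number of ABC transporter genes called was 10 to 13, beside 11 in the report. It was 13 with DESeq2 and with no filter, and 10 in each limma fit. At an adjusted p under 0.01 it was 11, and with 1 library left out 11 to 13. The members' share beside all genes changed with the fit. DESeq2 called 13 of 39 members and 6791 of 27508 genes, and edgeR with no filter 13 of 39 and 7821 of 27508. Here the members' share was the higher. On log2(FPKM + 0.1) limma called 10 of 20 members and 6684 of 13278 genes, nearly equal shares. At a mean of at least 50 counts, 11 of 23 members and 7293 of 11446 genes were called, a lower share for members. Of the 11 called genes, 10 kept call and direction in every alternative that tested them. The exception was ABCF1, lost with limma on log2(FPKM + 1) and no filter (adjusted p = 0.086). No called member changed direction. ABCC9 was not tested where a mean of 0.5 FPKM was required.

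The number called with a log2 fold change of at least 1 in size was 2. It was 4 with DESeq2 and 4 with no filter, where ABCA1 and ABCA8 were added. It was 1 on log2(FPKM + 0.1), 0 on log2(FPKM + 1) and 0 on log2(FPKM + 1) with no filter, where adding 1 FPKM makes the change of a low gene smaller. With 1 library left out it was 2 to 3, and ABCC9 was added without DMSO A, DMSO C or AS1842856 C. The peroxisome partners called went from 5 to 3 with limma on log2(FPKM + 1) and no filter. In the same fit the translation partners called went from 9 to 6, those higher from 6 to 3. The cause of these shifts was not tested.

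With the replicate letter as a block, 11 members were called, 4 higher and 7 lower, and 7862 of all genes beside 8029. The deviations of same-lettered libraries correlated at 0.042, -0.012 and -0.0033, so the letters were not taken as pairs. Depth limits the 19 untested members and the wide intervals of ABCA10, ABCA12, ABCB1 and ABCC2.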
